A study of Mus musculus with 3 samples.

Results

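FLI1 is a transcription factor of the ETS family, whose members bind DNA at a core of GGAA. It is required for the maturation of megakaryocytes, the large marrow and fetal liver cells that make platelets, and it works there beside RUNX1, GATA1 and NF-E2. Much of the binding of such factors lies not at promoters but at enhancers, which can sit in introns or in long stretches between genes and can act over large distances. The FLI1-bound sites described here lie far from the starts of genes, between genes or inside long ones. They are the 400-bp bins of the mouse genome (build mm9, counted from position 0) that held 60 or more FLI1 reads and fewer than 15 input reads, and whose centre was over 100 kb from every annotated start of a protein-coding transcript. The rule kept 1400 bins, which is 0.0531% of the 2634742 bins that far from a start and 7.24% of the 19328 bins that met the same read limits at any distance. Adjacent bins were merged into 1235 regions, of which 1079 were 1 bin long, 148 were 2 bins, 7 were 3 bins and 1 was 4 bins. Since FLI1 and input reads chose these bins, both counts describe the selection and are not findings.

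The reads come from 3 ChIP-seq libraries of mature, wild-type megakaryocytes of the CD1 mouse strain: FLI1, RUNX1 and input, the last being chromatin sequenced without an antibody. Livers of embryonic day 15, as the labels give it, were cultured with thrombopoietin for 5 days, other blood lineages were depleted with antibodies to TER119, GR1 and CD11b, and large cells were collected through gradients of albumin. Precipitates were pooled into 1 library per antibody, so there was no replicate, no test between libraries, and every interval below is an exact 95% interval for counting error alone. PCR copies cannot be told from separate molecules, and whether both ends of a fragment were counted in the RUNX1 file was not measured here, in which case the intervals on RUNX1 reads would be too narrow. By the study's methods the input was digested with micrococcal nuclease (MNase) while FLI1 and RUNX1 chromatin was sonicated, whereas the labels give sonication alone. Ratios of input are therefore no matched control for those of the factors. After removal of chromosome M and of repeated input positions, 62946422 FLI1, 3973856 RUNX1 and 21745220 input reads were counted. The RUNX1 file holds far fewer reads than the study lists for its RUNX1 library, so its depth here is that of the file and not of the library. As a check on the cell label, the best FLI1 bin within 2 kb of the start held 71 to 413 reads at all 14 megakaryocyte marker genes, and 60 or more at 1 of 5 erythroid, 4 of 5 granulocyte and monocyte and 0 of 4 hepatocyte markers, where 30.1% of 22232 protein-coding genes reached that count. These are levels of binding and not of expression, and binding in part of the cells cannot be told apart from weaker binding in all. Since 4 of 5 granulocyte and monocyte markers also reached 60 reads, the check does not set megakaryocytes apart from those cells. The study reports that a small residue of granulocytes and macrophages could not be avoided.

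The FLI1 summit of a region is the base covered by most FLI1 reads. To show what FLI1 bound so far from protein-coding starts, the sequence within 50 bp of it is printed for 8 regions. They were chosen after their values were seen, from the regions with most FLI1 or RUNX1 reads and those beside blood transcription factors, to show both forms of the ETS site, RUNX sites and windows with neither. Each is named by the protein-coding genes whose starts flank it, is read 5′ to 3′ on the plus strand of mm9, and has ETS or RUNX matches in capitals. The ETS consensus searched was CAGGAA or CCGGAA, followed by A or G, and the RUNX consensus was TGTGGT or TGCGGT, both on either strand.
Lrrtm3/Jmjd1c, chr10:66327380-66327480: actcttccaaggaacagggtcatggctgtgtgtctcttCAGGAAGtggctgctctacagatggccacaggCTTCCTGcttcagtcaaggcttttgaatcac
Pmepa1/1700021F07Rik, chr2:173203222-173203322: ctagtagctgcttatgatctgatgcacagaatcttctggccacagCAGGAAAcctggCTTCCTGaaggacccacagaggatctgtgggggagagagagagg
Slc9a9/Chst2, chr9:95020629-95020729: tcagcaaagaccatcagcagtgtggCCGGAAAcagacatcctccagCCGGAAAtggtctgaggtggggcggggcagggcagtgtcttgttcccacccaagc
1700092K14Rik/Rpl38, chr11:114415445-114415545: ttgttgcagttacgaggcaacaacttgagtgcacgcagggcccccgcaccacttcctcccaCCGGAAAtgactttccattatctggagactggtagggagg
Agtr1b/Tbl1xr1, chr3:21810138-21810238: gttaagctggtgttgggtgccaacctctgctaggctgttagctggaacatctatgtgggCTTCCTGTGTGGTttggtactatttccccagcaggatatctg
Runx1/Setd4, chr16:93180612-93180712: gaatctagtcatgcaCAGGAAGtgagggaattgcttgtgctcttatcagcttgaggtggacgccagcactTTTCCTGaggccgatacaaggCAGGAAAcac
Ets2/Psmg1, chr16:96083112-96083212: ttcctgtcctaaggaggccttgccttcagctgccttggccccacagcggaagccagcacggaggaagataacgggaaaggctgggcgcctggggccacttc
Fam92b/Gse1, chr8:122895831-122895931: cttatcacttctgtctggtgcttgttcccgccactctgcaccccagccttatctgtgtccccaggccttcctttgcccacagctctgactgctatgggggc
The windows beside *Jmjd1c* and *Pmepa1* hold a pair of CAGGAA matches on opposite strands, and the window in *Slc9a9* holds a pair of CCGGAA matches on the same strand. Beside *Tbl1xr1* an ETS match and a RUNX match adjoin with no base between them. The windows beside *Ets2* and between *Fam92b* and *Gse1* (the latter inside *Gm20388*) hold neither consensus, although both hold GGAA or its complement TTCC.

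FLI1 reads per selected bin ran from 60 to 432 with a median of 84: 363 bins held 60 to 69 reads, 560 held 70 to 99, 316 held 100 or more but under 150, 100 held 150 or more but under 200 and 61 held 200 or more. Input reads in the same bins ran from 0 to 14 with a median of 5. The bins 2 to 4 kb away held 12.7 FLI1 and 4.29 input reads on average, against 99.7 and 5.26 in the selected bins, a ratio of 7.85 for FLI1 and 1.23 for input. Input was thus also higher at the selected bins than around them, and its part in the counts was not tested.

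Around the summits both factors gave a single narrow peak, which for FLI1 follows from how the bins and summits were chosen. In 50-bp windows, FLI1 reached 30.95 reads per region at the summit (30.6 to 31.3) against 1.93 reads (1.92 to 1.95) at 1000 to 1500 bp from it. RUNX1, which had no part in the selection, reached 0.419 reads per region (0.383 to 0.456) in the same window and 0.107 (0.103 to 0.111) at 1000 to 1500 bp, a ratio of 3.91. Input stood at 0.705 reads (0.659 to 0.754) at the summit and 0.553 (0.544 to 0.562) away from it, a ratio of 1.28. RUNX1 reads were thus most frequent in the same 50-bp window as FLI1 reads.

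**Figure D1:**
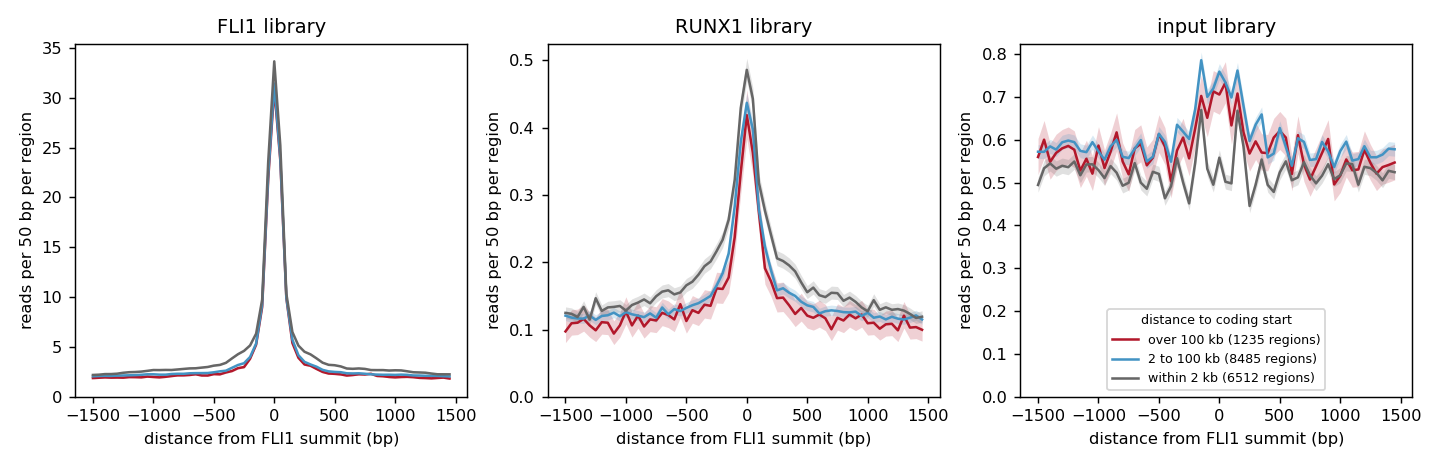
Mean reads per 50 bp per region (vertical axes, from 0, different in each panel) against distance from the FLI1 summit in bp, for regions over 100 kb (red), 2 to 100 kb (blue) and within 2 kb (grey) of a protein-coding start. Bands are exact 95% Poisson intervals. FLI1 chose the regions, and RUNX1 is highest in the same 50-bp window in all 3 groups.

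RUNX1, the partner factor that binds DNA with CBFB and is needed for megakaryocyte polyploidy and platelet formation, was counted in every selected bin. The bins held 0 to 23 RUNX1 reads with a median of 2 and a mean of 2.07 reads (1.99 to 2.14). Far bins that were not selected held 0.621 reads (0.620 to 0.622), and the bins 2 to 4 kb from the selected regions held 0.782 reads (0.768 to 0.797). The selected bins thus held 2.64 times the RUNX1 reads of their own surroundings. Of the 1400 bins, 262 (18.7%, 16.7 to 20.9) held 4 or more RUNX1 reads, compared with 1.06% of all far bins with a read and under 15 input reads. RUNX1 was not detected in 286 bins (20.4%), but at this depth a count of 0 allows up to 3 reads, so absence of RUNX1 from a single bin cannot be read from it.

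Bins with more FLI1 reads also held more RUNX1 reads. The mean was 1.54 RUNX1 reads (1.42 to 1.68) in bins with 60 to 69 FLI1 reads, 1.92 (1.80 to 2.03) with 70 to 99, 2.37 (2.20 to 2.54) with 100 or more but under 150 and 3.18 (2.91 to 3.47) with 150 or more. No interval in this series overlapped its neighbour, but the intervals hold counting error alone and leave out the spread between bins. Across all 1235 regions, reads of both factors in the best bin had a Pearson correlation of 0.306 and a Spearman correlation of 0.224, which describes regions that share mappability, base composition and the same 2 libraries. Mean input differed less, with 4.96 reads in the bins of 60 to 69 FLI1 reads and 5.71 in those of 150 or more, and its part was not tested.

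**Figure D2:**
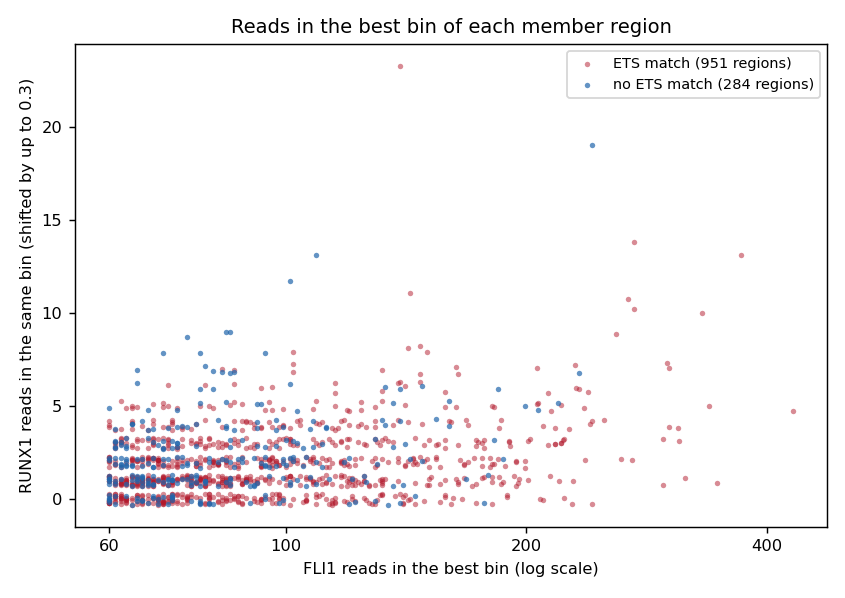
FLI1 reads (horizontal log axis) against RUNX1 reads (vertical axis, points shifted by up to 0.3) in the best bin of each region. Red points hold an ETS match and blue points hold none. FLI1 runs from 60 to 432 and RUNX1 from 0 to 23, and many regions with over 100 FLI1 reads held 0 to 3 RUNX1 reads.

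Set beside strong FLI1 bins nearer to genes, chosen by the same read limits, the far bins held fewer RUNX1 reads, and no interval of the 3 classes overlapped another. The mean was 2.28 (2.25 to 2.31) in the 9782 bins 2 to 100 kb from a start and 2.61 (2.57 to 2.64) in the 8146 bins within 2 kb. The shares with 4 or more RUNX1 reads were 21.4% and 27.2%. Bins 2 to 4 kb from those regions held 0.841 and 0.796 RUNX1 reads, beside 0.782 (0.768 to 0.797) around the far bins, an interval that overlapped with that around promoters (0.790 to 0.803) but not with the other. FLI1 in the best bin had a median of 85 reads in far regions, 87 at 2 to 100 kb and 97 within 2 kb. In the 50-bp window at the summit, RUNX1 intervals overlapped between far regions (0.383 to 0.456) and those at 2 to 100 kb (0.423 to 0.451). Within 2 kb the interval was 0.469 to 0.503. The ratios of RUNX1 to 1000 to 1500 bp away were 3.91, 3.67 and 3.78 in the same order. These intervals also leave out the spread between bins.

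ETS matches were the main feature of sequence that the far regions shared. At least 1 match was found in 951 of 1235 regions (77.0%, 74.6 to 79.3). Counted by bin, 73.4% of selected bins held a match against 23.6% of all far bins with a read and under 15 input reads. Base composition differed between these groups, with a mean GC content of 46.3% in the regions and 39.4% over far bins. Among bins with a GC content of 42 to 50%, the shares were 73.6% (70.4 to 76.7) of 785 selected and 27.8% (27.7 to 27.9) of 655845 other far bins. The distance from the summit to the nearest match had a median of 26 bp, and 770 regions (62.3%) had a match within 50 bp of the summit, against 7.29% of windows of equal length 500 bp to either side.

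Both forms of the ETS site occurred in far regions and at promoters, in different shares. Within 50 bp of the summit, CAGGAA followed by A or G, the A form, was present in 56.6% of far regions (53.8 to 59.4), 56.1% of regions at 2 to 100 kb (55.0 to 57.1) and 24.6% of those within 2 kb (23.5 to 25.7). CCGGAA, the C form, was present in 10.04% (8.42 to 11.85), 11.6% (10.9 to 12.3) and 42.03% (40.8 to 43.2). The shares of the far regions overlapped with those at 2 to 100 kb and lay outside those of promoters for both forms. Promoters were also richer in CpG, with a median of 26 CpG in the best bin against 4 in far regions, and 72.8% of promoter regions but 1.62% of far regions held 16 or more CpG in it. Since the C form contains a CpG, the form of the site and CpG content cannot be told apart here. Against their own flanks the ratios were 8.55 for the C form and 8.32 for the A form in far regions, and 13.1 and 4.14 at promoters. The A form was counted only before A or G and the C form before any base, so these ratios are not on like terms. Counted before any base in far regions, CCGGAA had a ratio of 8.33 and CAGGAA one of 5.29, by the ranking of words described below. No interval was made for these 2 ratios, and the first rests on 29 flanking windows with a match. A difference between the forms in far regions was thus not tested, and promoters were not compared in this way.

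Other sites of blood factors were found beside the ETS matches. RUNX matches lay within 50 bp of the summit in 24.8% of far regions (22.4 to 27.3) and in 7.98% of flanking windows, and GATA matches (AGATAA or TGATAA), the sites of GATA1 and GATA2, in 24.4% (22.0 to 26.9) and 10.7%. At promoters the same shares were 11.5% for RUNX and 5.47% for GATA, the latter against 6.83% in flanks. In regions at 2 to 100 kb the GATA share was 20.2% (19.3 to 21.1) against 9.11% in flanks, so that the ratios to flanks were close, at 2.28 in far regions and 2.22 in these. The RUNX shares of 24.8% and 24.3% overlapped. AP-1 sites (TGANTCA), bound by FOS and JUN dimers, were present at 10.4% of far summits (8.80 to 12.3), 7.496% (6.94 to 8.08) at 2 to 100 kb and 2.50% (2.14 to 2.91) of promoter summits. The longer NF-E2 site contains the AP-1 site and was found at 23 far summits (1.86%, 1.18 to 2.78) against 0.162% of flanking windows. E boxes (CAGATG or CAGCTG), the sites of TAL1 and its relatives, were less concentrated, at 18.8% and 11.9%. CTCF sites had overlapping intervals at summits and flanks, at 0.891% (0.445 to 1.59) and 0.648% (0.371 to 1.05), and GC boxes (GGGCGG) were found at 2.91% of far summits and 32.1% of promoter summits. Over whole bins the GATA share was close to the background, with 49.7% of selected bins and 47.2% of far bins, while for RUNX it was 48.2% and 25.03%. Among bins with a GC content of 42 to 50% the shares were 49.2% and 34.9% for GATA and 48.9% and 27.6% for RUNX.

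**Figure D3:**
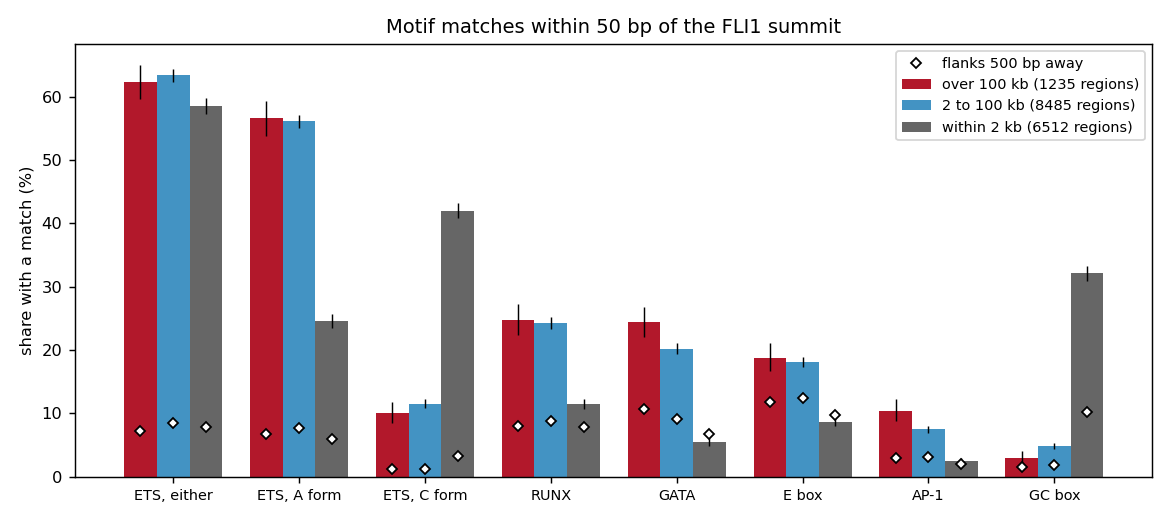
Share of regions with a match within 50 bp of the FLI1 summit (bars, %, with exact 95% binomial intervals) and share of windows 500 bp away (diamonds), by distance class. The A form is CAGGAA followed by A or G, and the C form is CCGGAA before any base. The A form stands at 56.6% in far regions and 24.6% at promoters, and the C form at 10.04% and 42.03%.

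All 6-letter words found at 5% or more of the far summits were ranked by their ratio to flanking windows, with 1 added to both counts of windows, which gave 671 words. The added count makes these ratios slightly lower than those of the printed shares, and lower than the 8.55 given above for CCGGAA without it. CGGAAG led with 10.1% of summits and 1.09% of flanks, a ratio of 9, and CCGGAA followed with a ratio of 8.33. The first 10 words all overlapped an ETS site and the bases beside it, with AGGAAG the most frequent of them at 63.6% of summits. The first word from another family was GATAAG at rank 11 (12.3% of summits, ratio 4.14), and GTGGTT, part of a RUNX site, stood at rank 13 (17.2%, ratio 3.54). Words overlap one another, so their ranks are not separate counts. The site of PU.1, GAGGAAGT, a relative of FLI1 in other blood lineages, lay at 9.47% of far summits (7.90 to 11.25) and 0.648% of flanking windows, and it contains the ETS core but not the consensus used here. Runs of 4 GGAA repeats, which the fusion protein EWS-FLI1 binds in Ewing sarcoma, were present in 4 of the 1400 bins (0.286%) and in 0.477% of far bins.

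More ETS matches went with more FLI1 reads. Regions with 0 matches had a median of 78 FLI1 reads in the best bin, those with 1 match 83, with 2 matches 87, with 3 matches 103 and the 55 regions with 4 or more 140. Longer regions have more room for matches, and FLI1 reads also set the length of a region, so this order is a description. The share of regions with a match within 50 bp of the summit, whose length is fixed, was 58.3% (52.6 to 63.9) for regions of 60 to 69 reads, 60.9% for 70 to 99, 63.1% for 100 or more but under 150 and 73.9% (66.15 to 80.6) for 150 or more. RUNX matches did not follow that order: they lay at 27.6% (23.7 to 31.8) of summits with 70 to 99 FLI1 reads and at 15.7% (10.3 to 22.4) of those with 150 or more.

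In the 284 regions with no ETS match (23.0%), the best bin held a median of 78 FLI1 reads and at most 242. GGAA lay within 50 bp of the summit in 270 of them (95.1%), against 68.7% of 568 windows in their flanks. A RUNX match was present in 148 of them (52.1%), close to the 52.2% over all regions. The 3 with most FLI1 reads, chosen after their values were seen, were a bin of the *Fam92b*/*Gse1* interval (242 FLI1, 19 RUNX1 and 14 input reads), 1 region between *Nmbr* and *Cited2* (233 FLI1, 7 RUNX1 and 1 input in its best bin) and 1 inside *Aig1* (219 FLI1, 5 RUNX1 and 5 input). All 3 held RUNX and GATA matches, as 52.2% and 53.2% of all regions did for each.

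RUNX1 reads were more frequent in bins with the RUNX consensus and less frequent in bins with the ETS consensus. The 675 bins with a RUNX match held 2.33 RUNX1 reads (2.22 to 2.45), and the 725 without held 1.82 (1.72 to 1.92). The 1027 bins with an ETS match held 1.92 (1.83 to 2.005), and the 373 without held 2.47 (2.32 to 2.64), although their FLI1 reads were fewer, with means of 103 and 90.4. Without the 6 bins of chromosome Y, which hold neither consensus and 39 RUNX1 reads in all, the bins without a RUNX match held 1.78 and those without an ETS match 2.41 (2.25 to 2.57). Split by both, the means were 1.71 (1.60 to 1.82) with ETS alone, 2.15 (2.02 to 2.28) with both, 2.13 (1.92 to 2.345) with neither and 2.83 (2.59 to 3.085) with RUNX alone. Mean input was 5.24 reads in the bins with ETS alone and 5.755 in those with RUNX alone. Seen from the RUNX1 side, a RUNX match was present in 41.6% of bins with 0 RUNX1 reads (35.8 to 47.6), 47.9% (44.5 to 51.3) with 1 to 3 reads and 56.5% (50.25 to 62.6) with 4 or more, and an ETS match in 80.1% (74.96 to 84.5), 73.2% and 66.4% (60.3 to 72.1). Bins with a GATA match held 2.22 RUNX1 reads (2.11 to 2.33) and those without 1.92 (1.82 to 2.02), whereas the intervals overlapped for E boxes (2.08 with and 2.05 without) and AP-1 sites (1.97 with and 2.09 without).

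**Figure D4:**
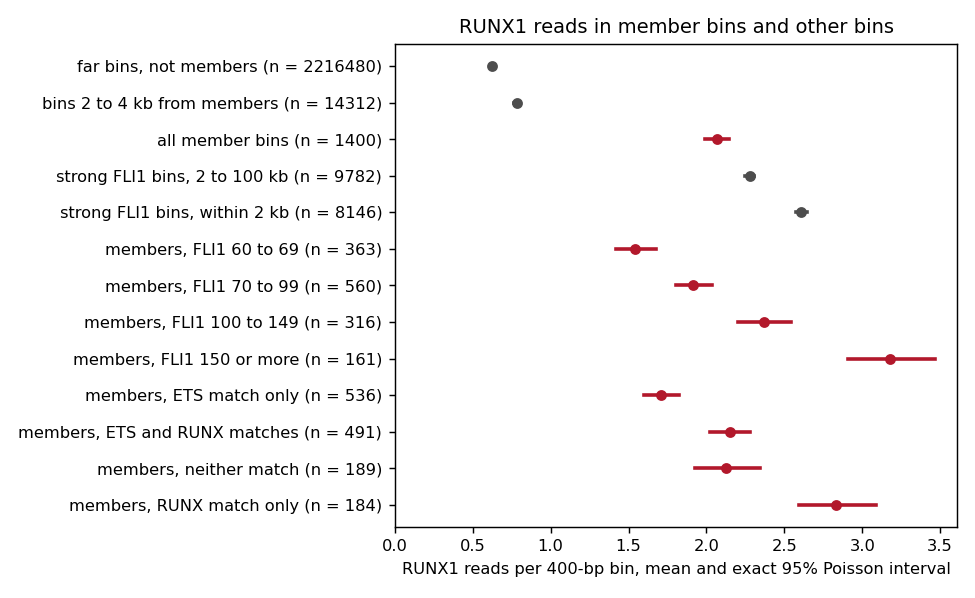
Mean RUNX1 reads per 400-bp bin (points) with exact 95% Poisson intervals (lines), for the selected far bins (red) and for other bins (grey), n in bins. Selected bins stand at 2.07 reads against 0.621 in other far bins, and bins with a RUNX match alone at 2.83 against 1.71 with an ETS match alone.

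The far regions thinned out with distance. The nearest protein-coding start lay a median of 160 kb away, 408 regions (33.0%) lay over 200 kb, 55 over 500 kb and 9 over 1000 kb from any. Of all far bins with a read and under 15 input reads, 0.129% (0.119 to 0.140) were selected at 100 to 150 kb, 0.102% at 150 to 200 kb, 0.0578% at 200 to 300 kb, 0.0337% at 300 to 500 kb, 0.0124% at 500 to 1000 kb and 0.00757% (0.00378 to 0.0135) beyond. RUNX1 reads per selected bin stayed between 2.02 and 2.23 up to 500 kb and were 1.50 (1.18 to 1.88) at 500 to 1000 kb. The 3 most distant regions lay between *Pcdh7* and *G6pd2* (1812 kb from the nearer start, 66 FLI1 and 0 RUNX1 reads), between *Gm10110* and *Pcdh9* (1805 kb, 68 and 4 reads) and between *Dsel* and *Cntnap5a* (1730 kb, 85 and 1 reads). These are reads in the best bin, where the median over all regions was 85 FLI1 reads, and the last of the 3 held no ETS match.

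**Figure D5:**
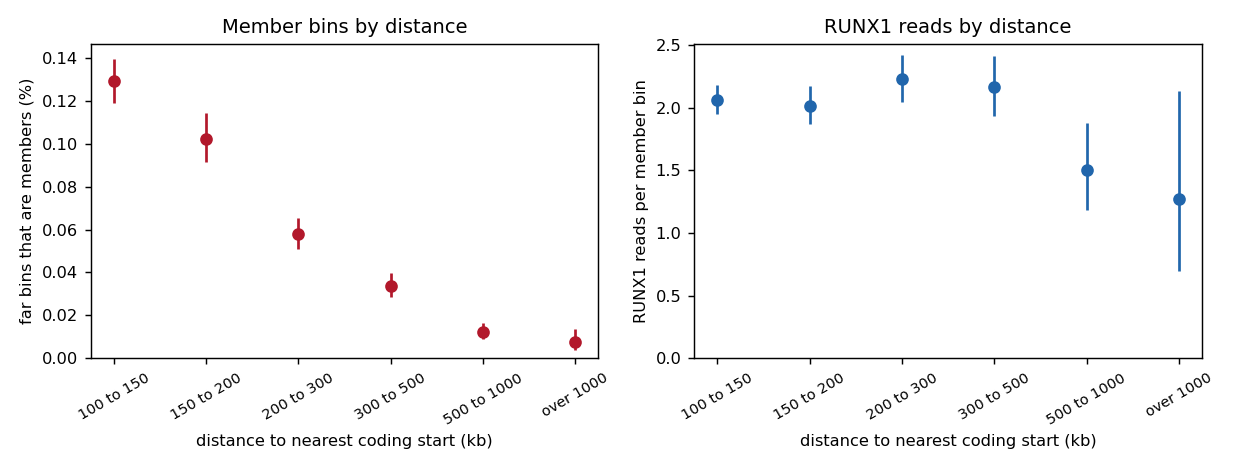
Left, share of far bins that were selected (%), with exact 95% binomial intervals. Right, RUNX1 reads per selected bin with exact 95% Poisson intervals. Both are plotted by distance to the nearest protein-coding start in kb: the share runs from 0.129% at 100 to 150 kb to 0.00757% beyond 1000 kb.

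Far from a start did not always mean outside a gene. Inside a protein-coding gene lay 333 regions (27.0%, 24.5 to 29.5), against 19.8% of far bins. Distance to the start was not made equal in this comparison. The share of regions inside a gene was 34.1% beyond 50 kb and 17.2% beyond 200 kb. An exon of such a gene was touched by 16 of all regions. RUNX1 reads per selected bin were 2.01 (1.87 to 2.16) inside and 2.09 (2.00 to 2.18) outside genes. The genes with most regions inside them were *Gm20388* with 12, *Pde4d*, a phosphodiesterase of cyclic AMP, with 7, *Csgalnact1* and *Sox5* with 6 each and *Auts2* with 5. With starts of every annotated transcript in the rule, 711 bins in 626 regions remained over 100 kb from any. Within 2 kb of an annotated start of another kind, noncoding transcripts, pseudogenes and immunoglobulin segments included, lay 37 regions (3.00%), and 73 regions lay inside a noncoding gene or a pseudogene. The shares of all far bins that touch an exon, lie near such starts or lie inside such genes were not counted. These counts therefore describe the regions alone.

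By chromosome, the selected bins were densest on chromosome 13 among the autosomes, where 134 of 100069 far bins with reads (0.134%) were kept, and sparsest on chromosome 3, with 0.0393%. Chromosome X gave 20 bins (0.0138%), but its far bins held 6.38 FLI1 reads on average against 9.63 to 10.4 on the autosomes, while the limit of 60 reads was the same. RUNX1 in the 20 bins was 0.800 reads per bin (0.457 to 1.30), and their mean FLI1 was 78.05 reads. Input was also lower in far bins of this chromosome, at 1.97 reads against 3.09 over all far bins with a read and under 15 input reads. RUNX1 in other far bins of chromosome X was not counted separately, so the 0.800 has no background of its own. The 6 bins of chromosome Y, named after their values were seen, lay between 2787201 and 2901600 of that chromosome, held 66 to 109 FLI1, 4 to 13 RUNX1 and 8 to 14 input reads, and had no ETS or RUNX match. On this chromosome 118 other far bins reached 60 FLI1 reads and were left out for 15 or more input reads, and without chromosome Y the mean was 2.05 RUNX1 reads per bin.

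Ranked by the reads in their best bin, the first region lay on chromosome 10, 232 kb from *Jmjd1c*, which encodes a Jumonji-domain protein, with 432 FLI1, 5 RUNX1 and 8 input reads in its best bin (region chr10:66326801-66327600). A 3-bin region 101 kb from *Pmepa1*, a gene that TGF-beta induces and whose product dampens its signal, held 372 FLI1, 13 RUNX1 and 7 input reads in its best bin (region chr2:173202801-173204000). It was among the highest for both factors. In an intron of *Maml3*, a co-activator of Notch, a bin held 347 FLI1 reads and 1 RUNX1 read with 6 input reads (chr3:51804001-51804400). An intron of *Plxna4*, a receptor of semaphorins, followed with 339 FLI1, 5 RUNX1 and 6 input reads (chr6:32108401-32108800), and the interval between *Gm9869* and *Gm10655* with 332 FLI1, 10 RUNX1 and 6 input reads (chr9:60846801-60847200).

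The best bin of the region 129 kb from *Psmg1* and 155 kb from *Ets2*, which encodes another ETS factor, held 316 FLI1 reads, 1 RUNX1 read and 6 input reads (region chr16:96082801-96083600), and its nearest ETS match was 224 bp from the summit. An intron of *Slc9a9*, a sodium and proton exchanger of endosomes, held 311 FLI1, 3 RUNX1 and 2 input reads (chr9:95020401-95020800). The start of another annotated transcript of *Slc9a9*, not a protein-coding one, lay 1505 bp from the centre of this bin. The 3-bin region 269 kb from *Klf6*, a zinc finger factor, held 310 FLI1, 4 RUNX1 and 5 input reads in its best bin (region chr13:5591201-5592400). Among the rest of the first 12, the bins beside *Rpl38* (a ribosomal protein) and between *Cd83* and *Jarid2* (a partner of the Polycomb complex) each held 302 FLI1 reads, with 4 and 7 RUNX1 reads. The widest region, 4 bins beside *Tomm20* on chromosome 8 (chr8:129356401-129358000), held 300 FLI1, 7 RUNX1 and 0 input reads in its best bin, and the bin 165 kb from *Tbl1xr1*, a subunit of a corepressor complex, held 297 FLI1, 3 RUNX1 and 5 input reads. Over the best bins of the 12 regions RUNX1 ran from 1 to 13 reads, counts too low to rank single bins.

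The regions with most RUNX1 reads in their best bin were in part different ones, though such counts are too low to rank single bins. Of the first 5, 2 were *Fam92b*/*Gse1* regions on chromosome 8, 1 with 19 RUNX1, 242 FLI1 and 14 input reads (chr8:122895601-122896000) and the other with 14 RUNX1, 273 FLI1 and 8 input reads in its best bin (region chr8:122893601-122894400). They lie inside *Gm20388*, a gene record that spans the interval, 117 and 119 kb from the start of *Gse1*. Also among them were the *Pmepa1* region and a bin of chromosome Y with 13 RUNX1, 109 FLI1 and 14 input reads. In the surroundings at 2 to 4 kb, 10 bins around the first *Fam92b*/*Gse1* region held 25 RUNX1 and 81 input reads in all. Around the second, 12 bins held 16 and 119, and around the chromosome Y bin 2 bins held 5 and 24. Around the *Pmepa1* region 11 bins held 5 and 47. The means around all selected regions were 0.782 RUNX1 and 4.29 input reads per bin.

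Genes with a role in blood cells were then followed by 4 lists: 82 platelet and megakaryocyte genes, 74 blood transcription factors, 57 cytokine, receptor and signalling genes and 32 genes of other blood lineages. Of 3905 protein-coding genes that flank any far bin, 1111 (28.5%) flanked a far FLI1 region. The counts by list were 10 of 24 platelet genes (41.7%), 24 of 37 transcription factors (64.9%), 16 of 27 signalling genes (59.3%) and 1 of 6 genes of other lineages (16.7%). Genes with longer intervals have more far bins to hold a region, so the share of far bins was counted too. Of far bins with a read and under 15 input reads, selected bins made up 0.0631% in all (0.0599 to 0.0665), 0.194% (0.135 to 0.269) of those flanked by platelet genes, 0.159% (0.1305 to 0.192) by transcription factors, 0.147% (0.110 to 0.192) by signalling genes and 0.0985% (0.0268 to 0.252) by genes of other lineages. The distance to the start was not made equal between these groups. The lists were chosen with earlier results of these data known. Selected bins also lie in groups, with 9 regions beside *Thbs1* alone, while the intervals treat bins as separate. A region was counted for a listed gene that flanks or contains it, also where the start of another gene was nearer. The 178 regions that flank or lie in a listed gene held 2.21 RUNX1 reads per bin (2.01 to 2.42), and the other 1057 held 2.04 (1.96 to 2.125).

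Among platelet genes, *Thbs1*, which encodes the alpha-granule protein thrombospondin-1, had 9 regions 104 to 381 kb away with 60 to 193 FLI1 reads in their best bins. *Prkca*, a protein kinase C of platelet activation, had 4 regions, all inside the gene, and their strongest bins held 230 FLI1, 7 RUNX1 and 7 input reads and 182 FLI1, 2 RUNX1 and 10 input reads. Near *Rgs18*, a regulator of G-protein signals in platelets, 1 region 364 kb away held 173 FLI1 reads, 1 RUNX1 read and 6 input reads. *Angpt1* and *Serpine2* had 4 regions each, *Rap1b*, a small GTPase of integrin activation, had 3, *F13a1*, the coagulation factor subunit carried by platelets, and *Trpc6* had 2 each, and *P2ry1*, a receptor of ADP, and *Thpo*, the gene of thrombopoietin, had 1 each. Inside *Nbea*, a protein of vesicle traffic, the best bin of a region held 194 FLI1, 2 RUNX1 and 8 input reads.

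Among transcription factors, *Myc* and *Id2*, a factor that blocks other helix-loop-helix proteins, were flanked by most, with 10 regions each. The *Myc* regions lay 172 to 1692 kb from its start, and the strongest, 1661 kb away and 156 kb from *Gsdmc*, held 273 FLI1, 10 RUNX1 and 6 input reads in its best bin (region chr15:63479601-63480400). *Runx1* itself was flanked by 6 regions 101 to 371 kb from its start, with 62 to 186 FLI1 reads and at most 6 RUNX1 reads in their best bins. The strongest, with 186 FLI1, 4 RUNX1 and 7 input reads (chr16:93180401-93180800), is the printed window with 3 ETS matches within 50 bp of the summit. *Ets2* had 5 regions 121 to 156 kb away and *Ets1* had 3, *Mef2c*, a factor of megakaryocyte and muscle genes, had 7, *Maf* and *Runx2* had 6 each, and *Bcl6* and *Sox4* had 5 each. *Zbtb20*, a zinc finger repressor, had 2, and the region 451 kb from it held 184 FLI1, 2 RUNX1 and 6 input reads. *Ebf1*, the B-cell factor and the sole gene of the other lineages with a region, had 3, and the strongest held 271 FLI1, 2 RUNX1 and 9 input reads inside the gene.

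Among receptor and signalling genes, *Kit*, the receptor of stem cell factor, was flanked by 6 regions 156 to 302 kb from its start. Some of these lay nearer to the start of *Kdr* or *Pdgfra*. All 6 held 2 or fewer RUNX1 reads in the best bin, but only 32.1% of all selected bins held 3 or more. The strongest of the 6 held 180 FLI1 and 3 input reads. *Cd47*, the surface signal against phagocytosis, had 2 regions, 1 with 250 FLI1, 4 RUNX1 and 5 input reads, and *Il6* had 4, 1 of them with 202 FLI1, 3 RUNX1 and 5 input reads. *Tgfbr2*, a receptor of TGF-beta, and *Tnfaip3*, which restrains NF-kappaB, had 4 regions each, and their strongest held 187 FLI1 reads with 1 RUNX1 read and 181 FLI1 with 5 RUNX1 reads.

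With gaps of up to 20 kb joined, 771 regions stood alone, 130 groups held 2, 30 held 3 and 23 held 4 or more. The largest group had 8 regions in 44.4 kb between *Serp2* and *9030625A04Rik* (chr14:77058001-77102400), with at most 181 FLI1 reads in a bin. The next had 7 regions in 42 kb between *Tle3*, a Groucho corepressor, and *Rplp1* (chr9:61514001-61556000), with 1065 FLI1, 18 RUNX1 and 52 input reads summed over its bins. Groups of 6 lay beside *Zfp36l2* (an RNA-binding protein), *Fam49a*, *Chd7* (a chromatin remodeller) and *Thbs1*. Among the 12 groups with most regions, the highest sum of FLI1 reads was in the group of 5 beside *Irf2bp2* and *Tomm20*, with 1132 FLI1 and 20 RUNX1 reads in 30 kb. By gene, *Gadd45g*, a stress response gene, and *Diras2* flanked 13 regions, *Serp2*, *9030625A04Rik* and *Ly86* 12 each and *Btg1*, which restrains proliferation, 11.

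Few regions were copies of one another. Of 1235 regions, 8 shared at least 150 bp at 75% identity or more with another, in a group of 6 on 5 chromosomes and a group of 2. These groups were found after their values were seen. The 6 held 62 to 151 FLI1 reads in the best bin with 0 to 3 RUNX1 reads, and all 6 had an ETS match, as 77.0% of all regions did. Since they were grouped by shared sequence, the 6 are not separate cases. In those beside *Gfra2* and *Rpl28-ps4* the nearest match was 134 and 90 bp from the summit.

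At the limits of the rule, 47 far bins held exactly 60 FLI1 reads and 56 held 59. The first of the former in genome order, chr1:140414001-140414400 and chr2:9610001-9610400, held 2 and 1 RUNX1 reads with 7 and 4 input reads. The first of the latter, chr1:64348001-64348400 and chr1:76537201-76537600, held 0 and 3 RUNX1 reads with 3 and 7 input reads. Of the selected bins, 6 held 14 input reads, and 163 far bins with 60 or more FLI1 reads were left out for input, 118 of them on chromosome Y and 15 on chromosome 17.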

How the data were processed

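ChIP-seq reads of FLI1, RUNX1 and input from cultured mouse megakaryocytes were analysed. Mapping by the authors used Bowtie (version not given in the sources used here) against mm9, and reads with a single location were retained without duplicates. The deposited files hold the position and strand of each read, and every count was made from these positions. The submitters' notes also name MACS 1.4 and SICER 1.1, whose output was not used here. The methods differ from the labels on the embryonic day (a day earlier), the library kit and the input, which the methods digest with MNase and the labels do not. NF-E2 and H3K4me2 libraries were not analysed here.

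One read was kept per position and strand. The 5′ ends were moved inwards by 63 bp (FLI1) or 80 bp (RUNX1 and input) and counted in 400-bp bins. Starts, genes and exons are those of GENCODE M1 on mm9. FLI1 reads extended to 126 bp gave the summits. Motifs were searched on both strands of mm9. Bins without any FLI1 or input read (415222 of the far bins) were left out of the background. Intervals are Clopper-Pearson or exact Poisson, at 95%. Counting, distances and summits were tested on simulated reads (Python 3.11.15, numpy 2.4.6, scipy 1.17.1), and shared sequence was found with blastn 2.17.0.

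The members, gene lists and motifs were chosen with earlier results of these data known. Named were the 12 regions with most FLI1 and the 5 with most RUNX1 reads, the 3 widest, the 3 farthest, up to 15 regions of listed genes by FLI1 reads, and bins at the limit. One region that this rule names is not reported here. Counts of regions per listed gene were added for all listed genes with a region. Alternatives were another bin grid, shift, FLI1 minimum, input limit, distance, set of starts and motif window.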

Additional observations from a re-analysis of the deposited data

How the results depend on the processing

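Of 68 values under alternative settings, 44 kept within 1.5 times the count or within the interval reported. Neither another bin grid, a shift of 75 bp, an input limit of 10 nor leaving out chromosome Y (added after seeing the data) moved any of the 6 results. Counting repeated input positions gave 1397 bins, and no read lay on a contig without a protein-coding start. Keeping such contigs therefore repeated the reported counts by construction, and these values are among the 44. Counts moved by construction to 787 bins and 707 regions with 80 FLI1 reads, 3046 and 2662 beyond 50 kb, 455 and 408 beyond 200 kb, and 711 and 626 with the starts of every transcript. The ETS share was 79.8% with 80 FLI1 reads, 62.3% within 50 bp of the summit and 15.4% for CCGGAA alone. RUNX1 reads per bin were 1.88 with 50 FLI1 reads, 2.40 with 80, 5.79 with no limit on input, 2.17 beyond 50 kb and 2.20 with all starts. The share with 4 or more RUNX1 reads was 16% with 50 FLI1 reads, 24.0% with 80 and 26.6% with no input limit, and a minimum of 3 or 6 reads gave 32.1% or 5.21%. The share inside genes was 34.1% beyond 50 kb, 17.2% beyond 200 kb and 23.6% with all starts. The 5.79 reads with no input limit include 163 further bins of high input. RUNX1 depth limits statements to groups of bins.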
